A study of Mus musculus with 16 samples.

Results

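The 3 mature miRNAs mmu-miR-672-5p, mmu-miR-350-3p and mmu-miR-547-3p (mmu for mouse, left out below) were followed across the 4 groups of a lentiviral hairpin experiment in mouse neurons. They are 3 of 1978 mature mouse miRNAs named in the count table, and each has a row of its own there. They had been picked because their levels stood above the empty vector by similar amounts with every hairpin. Those differences are therefore the reason for the choice and are given here with their errors and without a test. Tests are given for rows that the choice did not use, namely the opposite arms of the same precursors, a miRNA with the same seed, and miRNAs of the same chromosome or cluster.

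The cells of every group were primary neurons cultured from perinatal mouse forebrain, and every group, the controls included, had received a lentiviral vector. Empty_Vector carried no hairpin, shRNA carried a short hairpin RNA, and shRNA_2bp and shRNA_5bp carried that hairpin with 2 and 5 point mutations. Small RNA from 4 libraries per group was sequenced. The labels name neither the target of the hairpin nor the promoter that drives it, and they do not say whether the 4 replicates came from separate cultures or animals. The p-values below thus measure the spread between these libraries, which may be technical. In such cultures, fewer cells of a type and less RNA per cell cannot be told apart.

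A miRNA is cut from a hairpin-shaped part of a longer transcript by the Microprocessor in the nucleus and then by Dicer in the cytoplasm, which leaves a duplex of a 5p and a 3p arm. Usually 1 arm is kept in an Argonaute protein, and its seed, bases 2 to 8, pairs with messenger RNAs that are then repressed. A short hairpin RNA expressed from a vector resembles a miRNA precursor and passes through Dicer and Argonaute as well.

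The mature sequences from RefSeq (GRCm38.p6) are shown with the seed in capitals because the 3 miRNAs were chosen by level and not by sequence. MiR-377-5p is added as the sole other miRNA of the table with a mature sequence and the seed of any of them.
miR-672-5p: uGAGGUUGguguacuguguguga
miR-350-3p: uUCACAAAgcccauacacuuuc
miR-547-3p: cUUGGUACaucuuugagugag
miR-377-5p: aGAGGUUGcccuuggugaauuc
The 3 seeds differ from each other, and the longest run of letters that a pair of the 3 miRNAs has in common was 5 bases. Their lengths were 23, 22 and 21 bases and their GC contents 47.8%, 40.9% and 42.9%. Over the 427 tested miRNAs with a mature sequence the medians were 22 bases and 50%. The longest run shared with any other matched miRNA of the table was 9 bases for miR-672-5p, 9 for miR-350-3p and 8 for miR-547-3p. No other name had the same counts as any of the 3 in all 16 libraries.

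The precursors are shown with both mature arms in capitals, since the results below compare the arms.
Mir672: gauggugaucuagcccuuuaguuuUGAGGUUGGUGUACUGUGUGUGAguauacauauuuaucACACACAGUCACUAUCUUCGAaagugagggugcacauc
Mir350: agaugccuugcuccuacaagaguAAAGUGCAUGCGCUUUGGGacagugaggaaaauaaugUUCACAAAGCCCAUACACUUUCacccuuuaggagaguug
Mir547: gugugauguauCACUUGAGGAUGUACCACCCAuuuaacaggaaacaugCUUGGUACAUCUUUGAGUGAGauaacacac
MiR-672-5p lies on the 5′ side of its hairpin, and miR-350-3p and miR-547-3p lie on the 3′ side of theirs. The predicted folding energy was -0.45 kcal/mol per base for Mir672, -0.32 for Mir350 and -0.43 for Mir547. The median of the 290 precursors of tested miRNAs was -0.43.

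The 3 precursors come from separate loci (GRCm38.p6). Mir672 lies at chrX:104116175-104116274 on the minus strand, in intron 1 of 2 of Nexmif, an X-linked gene needed for neurite outgrowth that is transcribed from the same strand. Mir350 lies at chr1:176772325-176772423 on the minus strand, in intron 8 of 19 of Cep170, which encodes a centrosomal protein and has the same strand. Both introns are counted in the longest protein-coding transcript of GENCODE M21, and both precursors were intronic in every transcript of the host that spans them (3 for Nexmif and 4 for Cep170). Mir547 lies at chrX:67988374-67988451 on the minus strand, outside any annotated host gene and 66924 bases from the nearest protein-coding gene, 4933436I01Rik.

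Library totals ran from 2760894 to 11139163 counts with Empty_Vector, 5304461 to 8061785 with shRNA, 1177068 to 2097782 with shRNA_2bp and 831859 to 2496036 with shRNA_5bp, so both mutated groups were sequenced less deeply than the other groups. All 16 libraries entered 1 fit of 483 miRNAs that passed a filter on low counts, and all 3 miRNAs passed it. With adjusted p below 0.05 (edgeR's quasi-likelihood test with Benjamini-Hochberg adjustment), 95 miRNAs (19.7%) were higher and 73 (15.1%) lower with shRNA, 161 (33.3%) and 156 (32.3%) with shRNA_2bp, and 152 (31.5%) and 129 (26.7%) with shRNA_5bp. Without composition scaling the numbers were 149 and 44, 206 and 127, and 216 and 81. The 5 neuronal markers held between 448795 and 464026 CPM with Empty_Vector and between 335953 and 415102 CPM in the hairpin libraries, led by miR-128-3p and miR-9-5p, and 2, 3 and 3 of the 5 were called higher and 1, 2 and 1 lower with shRNA, shRNA_2bp and shRNA_5bp. MiR-128-3p, which led the list, differed from Empty_Vector by -0.37, -0.83 and -0.81 on the log2 scale in that order. MiR-9-5p differed by -0.01, 0.42 and 0.20, miR-124-3p by 0.44, 0.33 and 0.12, and miR-132-3p by 0.95, 0.45 and 1.07. MiR-138-5p differed by 0.17, -0.63 and 0.22, so the lower sum followed miR-128-3p and not the list as a whole. CPM is the usual counts-per-million unit, taken over the library total for summed lists and over the TMM-scaled total for single miRNAs.

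MiR-672-5p was the most abundant of the 3 and stood 151st of 483 with Empty_Vector. Its Empty_Vector libraries 1 to 4 had 163, 169, 180 and 147 CPM. The shRNA libraries had 376, 323, 289 and 257 CPM, the shRNA_2bp libraries 317, 290, 295 and 303 CPM, and the shRNA_5bp libraries 345, 308, 349 and 265 CPM. Every hairpin library lay above every Empty_Vector library, and the 3 hairpin groups overlapped each other. Such a separation was met by 18.2% of all tested miRNAs with shRNA, 29.8% with shRNA_2bp and 26.9% with shRNA_5bp. The means were 164.6 ± 13.8 CPM with Empty_Vector, 311.1 ± 50.8 with shRNA, 301 ± 11.9 with shRNA_2bp and 316.7 ± 39.1 with shRNA_5bp (SD, n = 4). On the log2 scale miR-672-5p was higher by 0.92 ± 0.098 with shRNA, 0.88 ± 0.102 with shRNA_2bp and 0.94 ± 0.103 with shRNA_5bp (± SE), close to a doubling each time. These values rested on 303 to 2929 counts per library.

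MiR-547-3p was scarce, at position 398 of 483 with Empty_Vector. Its levels were 6.76, 5.41, 5.59 and 4.74 CPM with Empty_Vector and 7.44, 10.9, 10.2 and 8.74 CPM with shRNA. They were 16.8, 7.24, 9.23 and 10.6 CPM with shRNA_2bp and 9.14, 13.0, 12.7 and 10.9 CPM with shRNA_5bp. The hairpin libraries again all lay above all Empty_Vector libraries, the narrowest gap being that between Empty_Vector library 1 and shRNA_2bp library 2. The shares of all tested miRNAs with such a separation were 18.2% with shRNA, 29.8% with shRNA_2bp and 26.9% with shRNA_5bp. The means were 5.62 ± 0.843, 9.30 ± 1.53, 10.97 ± 4.11 and 11.4 ± 1.77 CPM in the order of these groups (SD, n = 4). The log2 differences from Empty_Vector were 0.74 ± 0.220 with shRNA, 0.97 ± 0.259 with shRNA_2bp and 1.07 ± 0.260 with shRNA_5bp. Library 1 of shRNA_2bp was the highest of all, and without it the shRNA_2bp value was 0.67. The level rested on 9 to 58 counts per library, and 9 counts have an exact 95% Poisson interval of 4.12 to 17.1, which covers counting error only.

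MiR-350-3p was the scarcest of the 3, at position 415 of 483 with Empty_Vector. Empty_Vector libraries held 3.61, 4.99, 5.59 and 3.48 CPM and shRNA libraries 6.92, 4.76, 7.36 and 7.18 CPM. The shRNA_2bp libraries held 8.39, 10.4, 9.23 and 14.7 CPM and the shRNA_5bp libraries 9.14, 13.7, 13.8 and 7.30 CPM. The Empty_Vector and shRNA libraries overlapped, because shRNA library 2 lay below Empty_Vector libraries 2 and 3, whereas both mutated groups lay above every Empty_Vector library. Of all tested miRNAs 29.8% separated in that way with shRNA_2bp and 26.9% with shRNA_5bp. The means were 4.42 ± 1.04 CPM with Empty_Vector, 6.56 ± 1.21 with shRNA, 10.7 ± 2.82 with shRNA_2bp and 11.0 ± 3.30 with shRNA_5bp (SD, n = 4). MiR-350-3p was higher by 0.62 ± 0.241 with shRNA, 1.29 ± 0.276 with shRNA_2bp and 1.37 ± 0.277 with shRNA_5bp on the log2 scale. Counts per library ran from 9 to 54.

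**Figure D1:**
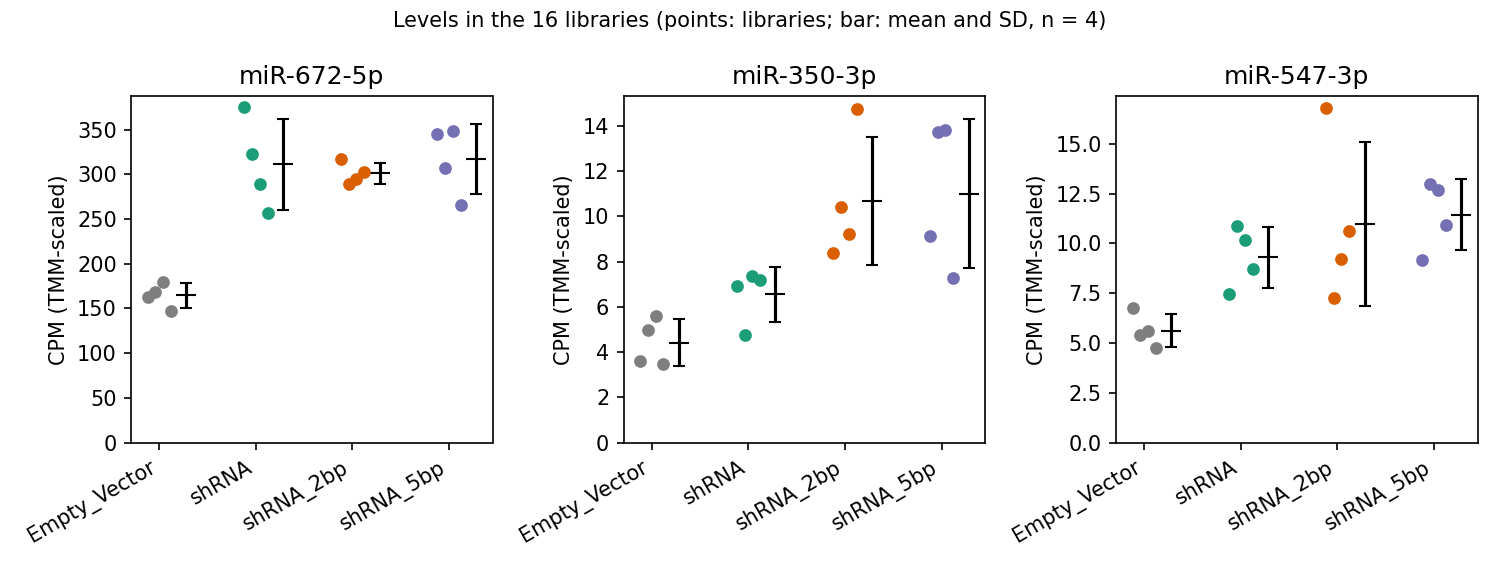
Levels of miR-672-5p, miR-350-3p and miR-547-3p in CPM (vertical axes, separate scales starting at 0) in the 4 groups; points are libraries 1 to 4 from left to right and the black bars the mean and SD. For miR-672-5p the 4 Empty_Vector libraries end at 180 CPM and the hairpin libraries begin at 257 CPM, while for miR-350-3p library 2 of shRNA, at 4.76 CPM, falls among the Empty_Vector libraries.

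Similar amounts were part of the choice, so the differences between hairpins are given as a description. Between the hairpin groups miR-672-5p differed by at most 0.06 on the log2 scale (shRNA_5bp against shRNA_2bp, 95% interval -0.16 to 0.29). For miR-547-3p the widest difference was 0.33 (shRNA_5bp against shRNA, 95% interval -0.20 to 0.87). MiR-350-3p stood higher with both mutated hairpins than with the unmutated hairpin, by 0.67 (95% interval 0.10 to 1.24) with shRNA_2bp and 0.75 (0.18 to 1.32) with shRNA_5bp. The shRNA_2bp and shRNA libraries of miR-350-3p did not overlap, and those of shRNA_5bp and shRNA did. How many of all tested miRNAs separate in that way between hairpin groups was not counted. Of all tested miRNAs 31.1% were called higher and 33.5% lower in shRNA_2bp than in shRNA, 28.4% and 24.6% in shRNA_5bp than in shRNA, and 36.9% and 22.8% in shRNA_5bp than in shRNA_2bp. For shRNA_5bp against shRNA the balance depended on 1 library and on the processing. In the main fit 137 were higher and 119 lower. The numbers were 93 and 151 without shRNA_5bp library 4, 129 and 132 with median-of-ratios scaling, and 94 and 185 without the filter on low counts. The other alternatives kept more higher than lower calls. The lower depth of both mutated groups moved with that difference in miR-350-3p, and its part in the result was not tested.

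Of the tested miRNAs 19.7% were called higher with shRNA, 33.3% with shRNA_2bp and 31.5% with shRNA_5bp. All 3 miRNAs were among them each time. They were chosen by these same differences, so these calls are no test of them and no support. The 3 comparisons share the Empty_Vector libraries, and 30 of 483 miRNAs (6.21%) were called higher in all of them. Among those 30, miR-672-5p had the smallest distance between its largest and smallest log2 difference, miR-547-3p came 10th and miR-350-3p 21st. The distances were 0.06, 0.33 and 0.75, and the other 27 had a median of 0.60 (0.11 to 1.95). These distances and ranks were taken in the main fit only. MiR-672-5p differed by 0.90, 0.77 and 0.71 with shRNA, shRNA_2bp and shRNA_5bp without the filter on low counts. With median-of-ratios scaling the values were 0.89, 0.89 and 0.88, so its distance moved with the processing. MiR-26b-5p (0.11), miR-146b-5p (0.23) and miR-30c-5p (0.26) followed miR-672-5p, with smaller differences from Empty_Vector. By the mean of the 3 log2 differences miR-350-3p came 7th, miR-547-3p 10th and miR-672-5p 11th of the 30.

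**Figure D2:**
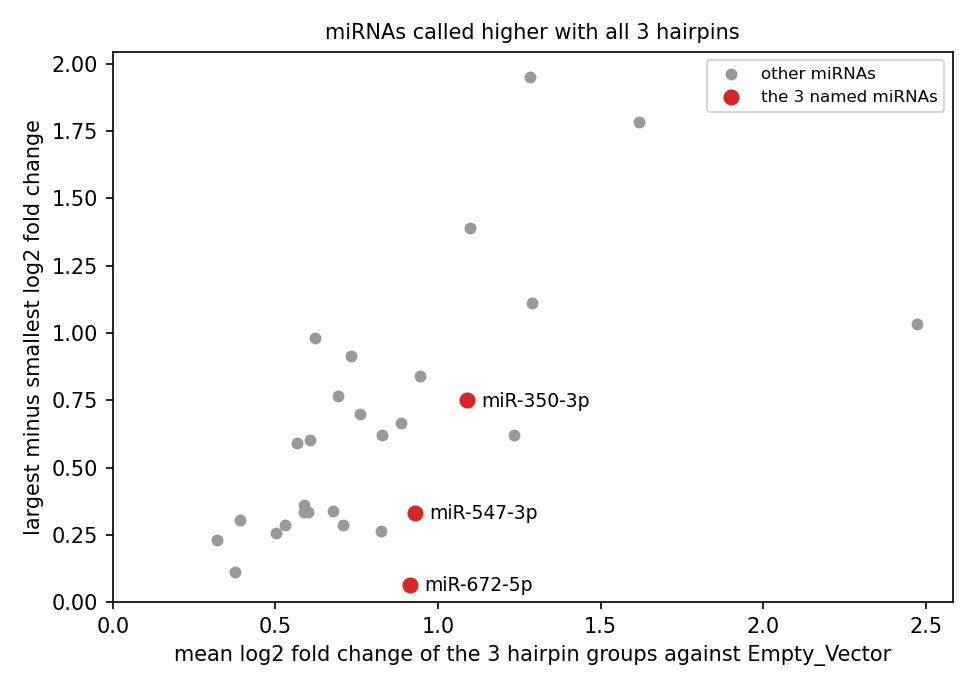
The 30 miRNAs called higher with all 3 hairpins, by the mean of their 3 log2 fold changes against Empty_Vector (horizontal axis) and the distance between the largest and smallest of the 3 (vertical axis). MiR-672-5p lies lowest at 0.06, miR-547-3p at 0.33 and miR-350-3p at 0.75; the axes show the values that chose these miRNAs and carry no test.

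The opposite arms come from the same precursors and were not used in the choice. MiR-672-3p, the scarce arm of Mir672, had 10.1, 11.2, 9.18 and 10.8 CPM with Empty_Vector and 11.0, 14.9, 11.6 and 8.74 CPM with shRNA. It had 12.6, 14.0, 17.7 and 18.8 CPM with shRNA_2bp and 11.2, 15.6, 12.7 and 15.8 CPM with shRNA_5bp. Only the shRNA_2bp libraries lay wholly above Empty_Vector, as they did for 29.8% of all tested miRNAs. MiR-672-3p rose with shRNA_2bp by 0.56 ± 0.209 (edgeR's quasi-likelihood test, adjusted p = 0.0205). That call was lost without shRNA_2bp library 3 (0.50, adjusted p = 0.0627) or library 4 (0.48, adjusted p = 0.0696) and without the filter on low counts (0.46, adjusted p = 0.198), the range over all 22 alternatives being 0.00264 to 0.198. The log2 difference was 0.13 ± 0.182 with shRNA (adjusted p = 0.643) and 0.44 ± 0.215 with shRNA_5bp (adjusted p = 0.0808), by the same edgeR test.

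MiR-350-5p, the other arm of Mir350, had 3.61 to 4.99 CPM with Empty_Vector, 4.10 to 5.34 with shRNA, 3.62 to 5.99 with shRNA_2bp and 2.03 to 13.8 with shRNA_5bp. Each hairpin group overlapped Empty_Vector. Its log2 differences were 0.14 ± 0.276 with shRNA, 0.19 ± 0.355 with shRNA_2bp and 0.65 ± 0.340 with shRNA_5bp (adjusted p = 0.745, 0.652 and 0.104, edgeR's quasi-likelihood test). Without shRNA_5bp library 1, where the arm had 2 counts, the last value was 0.81 (adjusted p = 0.0376, range over the alternatives 0.0243 to 0.568). MiR-547-5p had no count in any of the 16 libraries, which allows at most 0.0448 CPM over all of them. Of the 2 opposite arms tested, 1 was thus called higher with shRNA_2bp and 0 with shRNA or shRNA_5bp, where 33.3%, 19.7% and 31.5% of all tested miRNAs were.

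**Figure D3:**
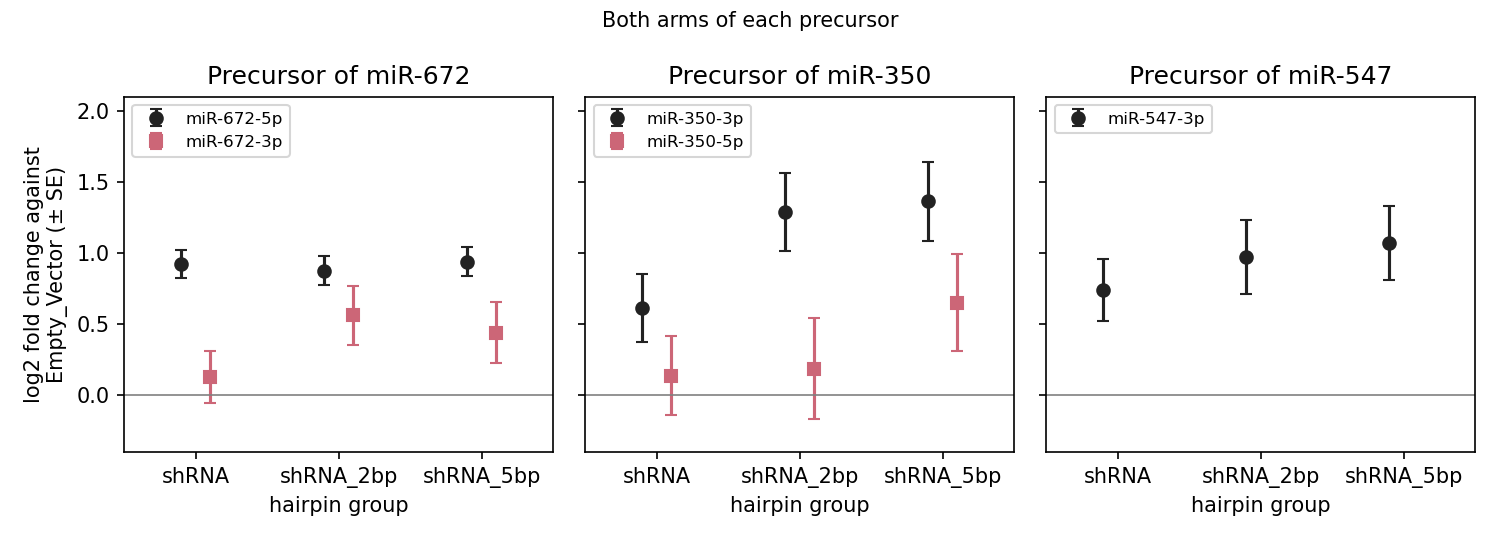
Log2 fold change against Empty_Vector with its standard error (vertical axis) for the chosen arm (black circles) and the opposite arm (pink squares) of each precursor, by hairpin group; miR-547-5p had no counts. The chosen arm lies above the opposite arm in all 3 hairpin groups for Mir672 and Mir350, for example 0.92 against 0.13 for Mir672 with shRNA. The chosen arms were picked for their rise, so this order is in part fixed by the choice and carries no test.

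The balance of the arms shows the same values from another side. MiR-672-5p held 93.1% to 95.1% of the counts of both Mir672 arms with Empty_Vector and 95.6% to 97.1% with shRNA, without overlap. With shRNA_2bp its share was 94.1% to 96.2% and with shRNA_5bp 94.4% to 96.9%, both overlapping Empty_Vector. The mean share of miR-350-3p in the counts of Mir350 was 51 ± 3.46% with Empty_Vector, so its arms were about equal there. The shRNA mean was 58.1 ± 7.42%, the shRNA_2bp mean 68.2 ± 7.02% and the shRNA_5bp mean 63.6 ± 16.1% (SD, n = 4). Every shRNA_2bp library had a larger share of miR-350-3p than every Empty_Vector library, whereas libraries 3 and 4 of shRNA_5bp stood at 50%, with 12 counts for each arm. Over all libraries miR-350-3p had more counts than miR-350-5p in 10, the same number in 4 and fewer in 2. These shares contain the values behind the choice and were not tested. How often the arm shares of other precursors separate in this way was not counted.

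**Figure D4:**
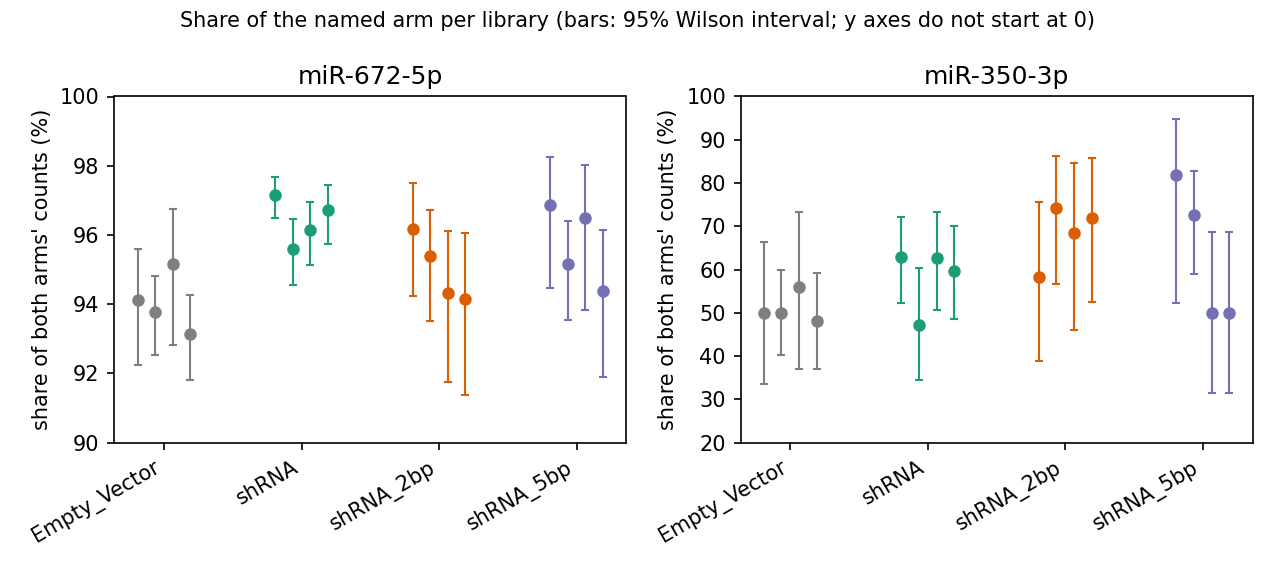
Share of miR-672-5p (left) and miR-350-3p (right) in the counts of both arms of their precursor, in percent, for each library; bars are 95% Wilson intervals, which cover counting error only, and the vertical axes do not start at 0. The 4 shRNA libraries of miR-672-5p begin at 95.6%, above the highest Empty_Vector library at 95.1%, and the intervals of miR-350-3p are wide because few counts stand behind them. The shares contain the values behind the choice, and such separations were not counted over other precursors.

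MiR-377-5p, the miRNA with the seed of miR-672-5p, is encoded on chromosome 12 and moved differently. It had 7.44, 4.79, 4.39 and 4.93 CPM with Empty_Vector and 3.72, 3.24, 4.56 and 3.59 CPM with shRNA. It had 4.19, 5.43, 2.84 and 5.73 CPM with shRNA_2bp and 11.2, 14.9, 10.4 and 12.2 CPM with shRNA_5bp. Only the shRNA_5bp libraries lay above all others, a separation not counted over all tested miRNAs. MiR-377-5p rose with shRNA_5bp by 1.23 ± 0.253 (adjusted p = 0.000133), while its log2 difference was -0.50 ± 0.239 with shRNA (adjusted p = 0.111) and -0.22 ± 0.303 with shRNA_2bp (adjusted p = 0.576, edgeR's quasi-likelihood test). Its mean level with Empty_Vector, 5.39 ± 1.39 CPM, was far below the 164.6 ± 13.8 CPM of miR-672-5p.

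No other annotated precursor lay within 100 kb of Mir672 or Mir350. Next to Mir547 stood Mir201, 213 bases away, and Mir509, 21654 bases away, on the same strand. MiR-201-5p had 10 counts and miR-201-3p 2 counts over all 16 libraries, and neither arm of miR-509 had any, so that none of the 4 could be tested. MiR-547-3p, by contrast, had at least 9 counts in each library.

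Mir547, Mir201 and Mir509 belong to a group of rodent miRNA genes between Fmr1 and Slitrk2 that is best known from testis. Without miR-547-3p itself, and with miR-547-5p and both arms of its near neighbours, 39 names of this group stood in the table. Of these 4 were tested and 13 had no count at all, and the precursors of the 4 lie 1.16 to 1.19 Mb from Mir547. MiR-881-3p rose with shRNA_2bp by 1.43 ± 0.195, from 10.1 ± 1.59 to 27.8 ± 7.22 CPM (adjusted p = 2.44e-07), and with shRNA_5bp by 0.92 ± 0.209 (adjusted p = 0.000381), in edgeR's quasi-likelihood test. MiR-871-3p rose with shRNA_2bp by 1.28 ± 0.239, from 6.26 ± 1.77 to 16.3 ± 0.949 CPM (adjusted p = 3.06e-05, the same test). MiR-465c-5p, whose near-identical copies cannot be separated with certainty, was called higher with shRNA_2bp (1.06 ± 0.459, adjusted p = 0.0444), a call lost in 10 of 22 alternatives (adjusted p 0.0194 to 0.252). MiR-741-3p did not pass in any comparison with Empty_Vector (adjusted p = 0.644 to 0.859, the same test). With shRNA, 0 of the 4 passed, where 19.7% of all tested miRNAs were called higher, and the median log2 difference was 0.16 against 0.04 for all tested miRNAs. With shRNA_2bp 3 of 4 passed (33.3% of all tested) and with shRNA_5bp 1 of 4 (31.5%), and a list of 4 says little beside these shares.

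On chromosome X, 49 miRNAs other than miR-672-5p and miR-547-3p were tested. With shRNA 16 of them were called higher and 2 lower, where 19.7% and 15.1% of all tested miRNAs were. With shRNA_2bp 19 were called higher and 13 lower, beside 33.3% and 32.3%, and with shRNA_5bp 16 and 10, beside 31.5% and 26.7%. Their median log2 differences were 0.24, 0.17 and 0.27, beside 0.04, 0.01 and 0.06 for all tested miRNAs. Both directions were met on this chromosome with every hairpin, although with shRNA only 2 of the 49 were lower.

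Over the 16 libraries the log2 levels of the 3 miRNAs moved together, with Pearson's r of 0.72 (miR-672-5p and miR-350-3p), 0.75 (miR-672-5p and miR-547-3p) and 0.65 (miR-350-3p and miR-547-3p). These libraries share groups and differ in depth, and the miRNAs were chosen for the same pattern, so the values describe them only. Among 359 other miRNAs of at least 10 CPM, the profile of miR-672-5p was by Pearson's r most like those of miR-181a-5p (r = 0.91), miR-30a-3p (0.86) and miR-146b-5p (0.84). Spearman's rho put them in the reverse order, at 0.65, 0.75 and 0.79. MiR-181a-5p, an abundant miRNA of brain and lymphoid cells, stood at 7295 ± 638.4 CPM with Empty_Vector and at 12249 ± 991.6, 15385 ± 1187 and 14297 ± 405.7 CPM with shRNA, shRNA_2bp and shRNA_5bp. The profile of miR-350-3p was nearest to miR-3473a (r = 0.83), miR-130a-3p (0.82) and miR-881-3p (0.82), and that of miR-547-3p to miR-30a-3p (0.79), miR-30a-5p (0.79) and miR-130a-3p (0.79). MiR-30a-3p and miR-130a-3p were each near to 2 of the 3. MiR-30a-3p differed from Empty_Vector by 0.36, 0.58 and 0.65 and miR-130a-3p by 0.56, 0.84 and 0.72 on the log2 scale, in the order of the groups above.

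Markers of other cells moved with the groups as well. Their counts are to be read beside the 19.7%, 33.3% and 31.5% of all tested miRNAs that were called higher with shRNA, shRNA_2bp and shRNA_5bp. Of 5 tested vessel and fibroblast miRNAs 0 were called higher with shRNA, 3 with shRNA_2bp and 4 with shRNA_5bp, and the 7 names of that list summed to 627 to 734 CPM with Empty_Vector, 630 to 768 with shRNA, 1152 to 1298 with shRNA_2bp and 1215 to 1263 with shRNA_5bp. Of 4 tested astroglia-leaning miRNAs 1, 4 and 2 were higher, with sums of 1709 to 1882, 2062 to 2402, 3755 to 4072 and 2269 to 2668 CPM in the same order. The microglia and leukocyte list summed to 45.2 to 57.0, 75.3 to 105, 88.8 to 110 and 70.9 to 90.3 CPM, with 2, 1 and 1 of 2 tested called higher, and its defining miR-223-3p and miR-142a-3p had no count in any library. The oligodendrocyte list, of which 1 of 2 tested was higher with shRNA_2bp only, summed to 107 to 136, 114 to 131, 152 to 185 and 110 to 161 CPM. Of the erythroid list only miR-486a-5p was tested, called higher with shRNA_2bp, and miR-144-3p and miR-144-5p had no count. The germ-line list, which shares names with the group between Fmr1 and Slitrk2, summed to 26.4 to 39.7, 46.4 to 66.2, 67.2 to 109 and 43.3 to 72.1 CPM, with 1, 2 and 1 of 3 tested called higher. Its most abundant tested member, miR-34c-5p, is not of that group and differed from Empty_Vector by 0.84, 1.42 and 0.58 on the log2 scale. MiR-34c-5p was the 1 called with shRNA, where miR-871-3p (0.32) and miR-741-3p (-0.22) of that group did not pass. With shRNA the vessel and fibroblast, oligodendrocyte and erythroid sums overlapped those of Empty_Vector, and the astroglia, microglia and germ-line sums lay wholly above them. These sums were taken over library totals, with which the median log2 difference of all tested miRNAs with shRNA was 0.18. With composition scaling that median was 0.04, and those of the tested astroglia, microglia and germ-line members were 0.10, 1.33 and 0.32. The narrow astroglia separation is therefore not read as a rise. The part of these markers in the levels of miR-672-5p, miR-350-3p and miR-547-3p was not tested.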

How the data were processed

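Small RNA was sequenced in 16 libraries (4 groups of 4). Per the labels' protocols, the NEBNext small RNA kit was used on 100 ng of total RNA with 15 PCR cycles and size selection. The submitters' processing notes name bcl2fastq 2.20.0.422, Trim Galore 0.6.0, cutadapt 1.15, Bowtie 1.1.1, edgeR and GRCm38.p6. The alignment settings and the handling of reads that fit several miRNAs are not given in the sources used here.

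The authors deposited raw counts per mature miRNA. Of 1978 names 611 had no count. EdgeR's filterByExpr kept 483, which held at least 99.9413% of each library's counts. They were fitted over all libraries with TMM scaling and the robust quasi-likelihood test (edgeR 4.0.16, R 4.3.3, 12 residual degrees of freedom), with Benjamini-Hochberg adjustment over all 483 and a threshold of 0.05. The procedure was tested on simulated data. DESeq2 1.42.0 was an alternative, as were other scalings, no filter, the compared groups alone, a replicate block and leaving out each library. Precursors and mature sequences came from RefSeq, hosts from GENCODE M21, and folding energies from RNAfold 2.7.2.

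Names without a mature entry were placed on chromosome X by their precursor. The 3 miRNAs and all lists were chosen with earlier results of these data known. Further miRNAs were named by rule: opposite arms, tested miRNAs within 100 kb or in the same host gene, those with the same seed, those of the Fmr1-Slitrk2 cluster, and for each miRNA the 3 nearest profiles of at least 10 CPM. The most abundant of the marker lists were named by level only. A list for Fgf13 was not used, because that gene holds Mir504 and the annotation places Mir672 in Nexmif. Totals of 831859 to 11139163 counts limit the precision of scarce miRNAs. PCR reads without molecular identifiers are not independent molecules, so intervals and floors cover counting error only.

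Replicate numbers are shared by the groups in the labels. Over 360 miRNAs of at least 10 CPM, same-numbered Empty_Vector and shRNA libraries deviated together (r = 0.111 to 0.282 in 4 of 4 pairs), as did shRNA and shRNA_2bp libraries (0.166 to 0.198 in 4 of 4). These numbers were taken to pair the libraries on that correlation alone. The values printed come from the fit without a block, so their errors, intervals and p-values leave that pairing out. The fit with the replicate number as a block was an alternative. For shRNA_2bp and shRNA_5bp against Empty_Vector, 3 and 1 of 4 pairs were above 0.1. For shRNA_5bp against shRNA and against shRNA_2bp, 2 and 3 of 4 pairs were.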

Additional observations from a re-analysis of the deposited data

Results flagged for a closer look

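The lowest shRNA library of miR-350-3p, library 2, stood apart from the other 3 of its group, at 4.76 CPM against 6.92 to 7.36 CPM. The gap took up 0.831 of the group's range, just past Dixon's critical value for groups of this size. Of 24 groups of 4 libraries looked at in this way 1 stood out, where chance gives about 1 in 20. Without that library the log2 difference of miR-350-3p between shRNA and Empty_Vector was 0.68 in place of 0.62.

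Differences between hairpins were examined for 7 tested miRNAs in 3 comparisons each, and 7 of 21 passed (edgeR's quasi-likelihood test with Benjamini-Hochberg adjustment). Over all tested miRNAs 31.1% were called higher and 33.5% lower in shRNA_2bp than in shRNA, 28.4% and 24.6% in shRNA_5bp than in shRNA, and 36.9% and 22.8% in shRNA_5bp than in shRNA_2bp. MiR-377-5p, which has the seed of miR-672-5p, was higher with shRNA_5bp than with shRNA by 1.73 on the log2 scale (adjusted p = 1.99e-06) and than with shRNA_2bp by 1.45 (adjusted p = 0.000216). Its 4 shRNA_5bp libraries lay above all 8 libraries of the other hairpins, a separation not counted over all tested miRNAs. MiR-871-3p was higher with shRNA_2bp than with shRNA by 0.96 (adjusted p = 0.000721), and its log2 difference between shRNA_5bp and shRNA_2bp was -0.79 (adjusted p = 0.0152). MiR-881-3p exceeded its shRNA level by 1.27 with shRNA_2bp (adjusted p = 1.41e-06) and by 0.76 with shRNA_5bp (adjusted p = 0.00260), and shRNA_5bp differed from shRNA_2bp by -0.51 (adjusted p = 0.0392). That last call was lost in 6 of 22 alternatives (adjusted p 0.0212 to 0.186, edgeR or DESeq2), namely with library totals and without shRNA library 2 or 4, shRNA_2bp library 4, or shRNA_5bp library 1 or 2. The difference between shRNA_5bp and shRNA was lost without the filter on low counts (0.55, adjusted p = 0.0845, range 0.000779 to 0.0845). The other 5 calls held in all 22 alternatives, the replicate block among them.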

How the results depend on the processing

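The log2 differences of miR-672-5p, miR-350-3p and miR-547-3p from Empty_Vector kept their direction in all 22 alternatives for each hairpin, and none moved by more than 1.5 times. Leaving out 1 library at a time gave 0.82 to 0.96, 0.80 to 0.92 and 0.84 to 0.98 for miR-672-5p with shRNA, shRNA_2bp and shRNA_5bp, 0.49 to 0.73, 1.13 to 1.40 and 1.11 to 1.48 for miR-350-3p, and 0.61 to 0.84, 0.67 to 1.17 and 0.93 to 1.17 for miR-547-3p. With library totals alone and without the filter on low counts the values were 1.06 and 0.77 for miR-672-5p with shRNA_2bp, 1.18 and 0.71 for miR-672-5p with shRNA_5bp, and 1.32 and 0.83 for miR-547-3p with shRNA_5bp. Library totals moved the median of all tested miRNAs from 0.04, 0.01 and 0.06 to 0.18, 0.19 and 0.30. They gave 149 higher and 44 lower calls with shRNA and 81 lower calls with shRNA_5bp. Without the filter the share of higher calls was 38.2% with shRNA_2bp and 38.2% with shRNA_5bp. Leaving out 1 library gave 66 to 105 higher and 64 to 88 lower calls with shRNA, 138 to 161 and 144 to 173 with shRNA_2bp, and 117 to 154 and 122 to 141 with shRNA_5bp.

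The replicate block changed 0 of 42 calls on the 7 tested miRNAs named here (opposite arms, seed and X-linked group, in all 6 comparisons), and with it miR-672-5p differed by 0.91, 0.87 and 0.93. MiR-672-3p, miR-465c-5p and miR-741-3p changed sign when 1 library was left out, in comparisons they had not passed. MiR-672-3p ran from -0.060 (without shRNA replicate 2) to 0.19 with shRNA. MiR-465c-5p ran from -0.19 (without shRNA replicate 1) to 0.29 with shRNA and from -0.32 (without shRNA_5bp replicate 4) to 0.50 with shRNA_5bp. MiR-741-3p ran from -0.39 to 0.15 with shRNA (above 0 without Empty_Vector replicate 2), from -0.36 to 0.55 with shRNA_2bp (below 0 at -0.06 without Empty_Vector replicate 3, and at -0.36 and -0.12 without shRNA_2bp replicates 3 and 4), and from -0.17 (without shRNA_5bp replicate 2) to 0.64 with shRNA_5bp. Library totals added calls for miR-672-3p (adjusted p = 0.00701), miR-350-5p (0.0243) and miR-871-3p (0.0167) with shRNA_5bp, by edgeR's quasi-likelihood test; over all alternatives these ranged to 0.689, 0.568 and 0.639. Depth limits miR-350-3p and miR-547-3p, with as few as 9 counts in a library, and miR-350-5p, with as few as 2, and the depth of the mutated groups cannot be told apart from the group.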

Other observations

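Most names of the X-linked group between Fmr1 and Slitrk2 had some counts in these forebrain cultures although few could be tested. MiR-465a-3p, miR-465b-3p and miR-465c-3p each had 209 counts over the 16 libraries, miR-470-5p had 129 and miR-743b-3p had 45. MiR-463-3p, miR-742-3p and miR-883b-5p had none. The summed level of the 39 names was 31.5 to 37.1 CPM with Empty_Vector, 36.3 to 52.1 with shRNA, 63.4 to 89.2 with shRNA_2bp and 47.6 to 57.7 with shRNA_5bp. The 3 names with 209 counts had the same count in every library and may hold the same reads. Taken once, the sums were 24.3 to 31.5, 31.0 to 43.4, 56.7 to 84.1 and 41.2 to 52.9 CPM. All of these sums were taken over library totals, without composition scaling.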
